A study of Mus musculus with 155 samples.

Results

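The genes described here are the mouse Zfp genes of a single-cell RNA table of the adult brain: every gene symbol that reads Zfp followed by a digit, with Zfp488 left out. There were 67 of them among 3422 genes, or 1.96% of the table, and they were picked by name and not by any measured value. They are described across 5 sorted populations from the subventricular zone, a neurogenic niche beside the lateral ventricle, and from the overlying white matter of the corpus callosum.

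In mouse the Zfp symbol marks genes for zinc finger proteins, most of them of the C2H2 kind, in which paired cysteines and paired histidines hold a zinc ion and each finger reads a few bases of DNA. Many also carry a KRAB domain, which brings in the corepressor Trim28 and the histone methyltransferase Setdb1 and silences retroelements and other targets, and these genes lie in clusters of near copies. Others have single-gene roles in mRNA decay, imprinting, SUMO attachment or cell division, and Zfp24 is needed in mouse for oligodendrocytes to mature and myelinate.

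Polyadenylated RNA of 155 single cells was read by SMART-Seq2, a full-length protocol, with 1 cell per sample, from mice aged 8 to 10 weeks. OligNBL were 40 cells positive for both a Gad67-GFP and an Olig2-Tomato reporter, from a cross of the 2 reporter strains. NBL were 27 cells positive for Gad67-GFP, from the strain CB6-Tg(Gad1-EGFP)G42Zjh/J. OL were 22 cells positive for Olig2-Tomato, from the strain Olig2-tdTomato TH39Gsat/Mmcd. These 3 populations are labelled as coming from mice 6 days after an injection of LPC, a lipid that strips myelin. O, 29 Tomato-positive cells, and NB, 37 GFP-positive cells, came from uninjected healthy mice of the Tomato and the GFP strain. The 40 OligNBL cells are labelled as lesion cells, whereas their titles carry a control mark, so their lesion state is uncertain wherever it is used below. According to the labels 5 mice were used per condition, but the mouse behind a cell is not named. Each population therefore counts as 1 sample, cells are not replicates, and no test between populations was possible. Strain changes with the gate, so strain and cell type cannot be told apart in any comparison between gates. No population here came from mice injected without LPC. Injection and loss of myelin therefore cannot be told apart between lesion and healthy cells.

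Of the 67 genes, 66 had an annotated coding sequence on GRCm38 and Zfp125 was annotated as a pseudogene. At least 1 C2H2 finger was found in the translated sequence of 63, with a median of 9 fingers and up to 33 in Zfp462. Zfp36, Zfp330 and Zfp935 had none in their longest annotated coding transcript: Zfp36 is a CCCH finger protein, and Zfp330 is a nucleolar protein that is not of the C2H2 kind. The KRAB A box was found in 22 members by a strict pattern, and no match says nothing of the remaining 44. Chromosome 7 held 13 members.

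The first C2H2 finger of 5 members is printed for 2 pairs of near copies, since one pair moved together across cells and the other did not, and because Zfp422 had the largest difference found. The sequences are the coding strand on GRCm38, 5′ to 3′, each within the last exon. They lie at chr17:55865909-55865971 for Zfp119a and chr17:55939258-55939320 for Zfp119b, both on the minus strand. Those of the other close pair are at chr7:27878029-27878091 for Zfp607a and chr7:27702640-27702702 for Zfp607b, both on the plus strand. The finger of Zfp422 is at chr6:116626806-116626868 on the minus strand. Capitals mark the codons of the cysteines and histidines that hold the zinc ion.
Zfp119a: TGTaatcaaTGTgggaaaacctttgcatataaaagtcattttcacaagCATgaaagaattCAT
Zfp119b: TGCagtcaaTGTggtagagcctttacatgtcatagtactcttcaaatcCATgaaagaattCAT
Zfp607a: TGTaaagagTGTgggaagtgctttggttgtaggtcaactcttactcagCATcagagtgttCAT
Zfp607b: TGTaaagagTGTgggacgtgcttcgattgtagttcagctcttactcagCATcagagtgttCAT
Zfp422: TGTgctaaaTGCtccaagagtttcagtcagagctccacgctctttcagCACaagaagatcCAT
Zfp119a and Zfp119b share 48 of 63 bases in this finger, and Zfp607a and Zfp607b share 58 of 63.

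The deposited values are named estimated counts but behaved as a normalized signal, with column totals between 5155900 and 5161090, and the depth of sequencing is unknown. A gene's level below is the mean over a population's cells of log2(value + 1), given with the SD between cells, and it is compared within a gene and never between genes. Between 353 and 1910 genes were detected per cell, detected meaning a value above the cell's lowest. A set of 11 markers of mature oligodendrocytes, such as Mbp and Mog, had a summed level of 0 to 8.30 in OligNBL cells, 0 to 8.84 in NBL, 21.11 to 131.48 in OL, 49.74 to 103.60 in O and 0 to 12.09 in NB. The 15 measured neuroblast markers, such as Dcx and Dlx2, summed to 26.31 to 85.53 in OligNBL, 22.52 to 60.45 in NBL, 0 to 27.73 in OL, 1.83 to 31.06 in O and 14.75 to 66.60 in NB. OL and O cells therefore carried mature oligodendrocyte RNA, and progenitor markers (6 measured) had a median sum of 11.39 in OligNBL, 2.72 in NBL, 4.35 in OL, 6.72 in O and 0 in NB. The progenitor sum thus ran with OligNBL in its comparisons, with cells from 0 to 50.80 in OligNBL and 0 to 28.97 in NBL, and its part in them was not tested. Cells fell into sets of alike cells. Joining cells at a mean correlation of 0.4 over the genes that are not Zfp genes gave 20 sets. Of these, 4 held more than 1 population. Split by population, the 20 sets make 21 parts of 3 or more cells, called sets below, with 149 of the 155 cells. Every NBL set and every OL set was an unbroken run of its population's sample numbers. So were OligNBL sets 2 to 5 and NB sets 1, 3, 4 and 5. OligNBL set 1, O set 1 and NB set 2 were scattered, and the ranges of O sets 2 and 3 overlapped. In most sets, set and sample order therefore cannot be told apart, and the part of sample order was not tested. Whether a set stands for a mouse, a plate or a cell state is unknown, and its part in the results was not tested beyond the values without each set.

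The Zfp genes took a larger part of the genes detected in NBL cells than in the other 4 populations. An NBL cell had 25.2 ± 6.3 of the 67 members detected, a share of 2.15 ± 0.29% of its detected genes (SD between 27 cells). The share was 1.58 ± 0.21% in OligNBL, 1.42 ± 0.33% in OL, 1.67 ± 0.21% in O and 1.79 ± 0.28% in NB. The lowest, median and highest cell were at 1.42, 2.16 and 2.78% in NBL, at 1.16, 1.59 and 2.08% in OligNBL and at 1.06, 1.82 and 2.42% in NB. Single cells of NBL and NB overlapped, but the 4 sets of NBL cells, at 1.98 to 2.29%, all lay above the highest set of any other population, an NB set at 1.94%. The number of members detected moved with the number of genes detected, with a Pearson correlation across cells of 0.82 in OligNBL, 0.84 in NBL, 0.56 in OL, 0.92 in O and 0.94 in NB. The number of genes detected averaged 1411 in OligNBL, 1182 in NBL, 989 in OL, 1196 in O and 1019 in NB. The SD between cells was at most 341. The part of this number in the NBL share was not tested.

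**Figure D1:**
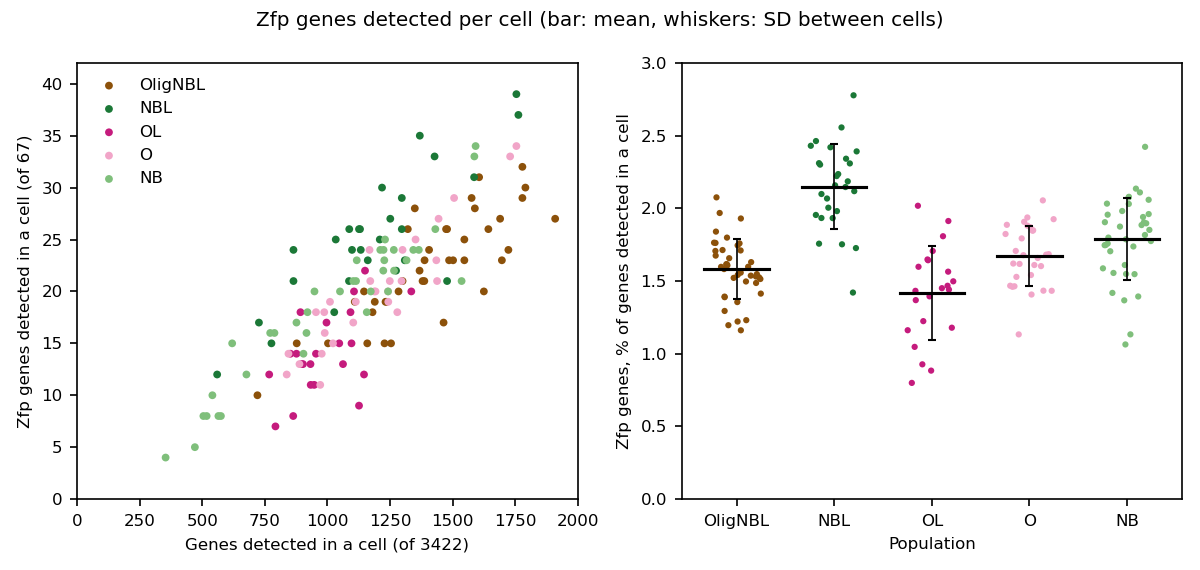
Left, Zfp genes detected in a cell (of 67) against all genes detected in it (of 3422), 1 point per cell, coloured by population. Right, Zfp genes as a percentage of the genes detected, 1 point per cell, with the mean and the SD between cells. NBL averaged 2.15% and OL 1.42%.

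By level, NBL was also the population in which most members peaked. Of the 67, 22 (32.8%) had their highest level in NBL, against 17.3% of all 3422 genes. OligNBL had the highest level of 13 members (19.4%, against 26.8% of all genes), OL of 7 (10.4% against 16.7%), O of 13 (19.4% against 19.7%) and NB of 12 (17.9% against 19.5%). A lead of at least 2 over every other population was held by 3 members in OligNBL (4.48%, against 6.98% of all genes), 9 in NBL (13.4% against 5.49%), 2 in OL (2.99% against 5.29%), 5 in O (7.46% against 5.64%) and 4 in NB (5.97% against 5.84%). At the other end, 15 members (22.4%, against 11.4% of all genes) were detected in no OL cell. That number was 1 in OligNBL (1.49% against 3.62%), 2 in NBL (2.99% against 9.7%), 3 in O (4.48% against 4.85%) and 4 in NB (5.97% against 10.3%). OL had the fewest cells and the fewest genes detected, and 0 of 22 cells still permits a share as high as 13.6%.

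**Figure D2:**
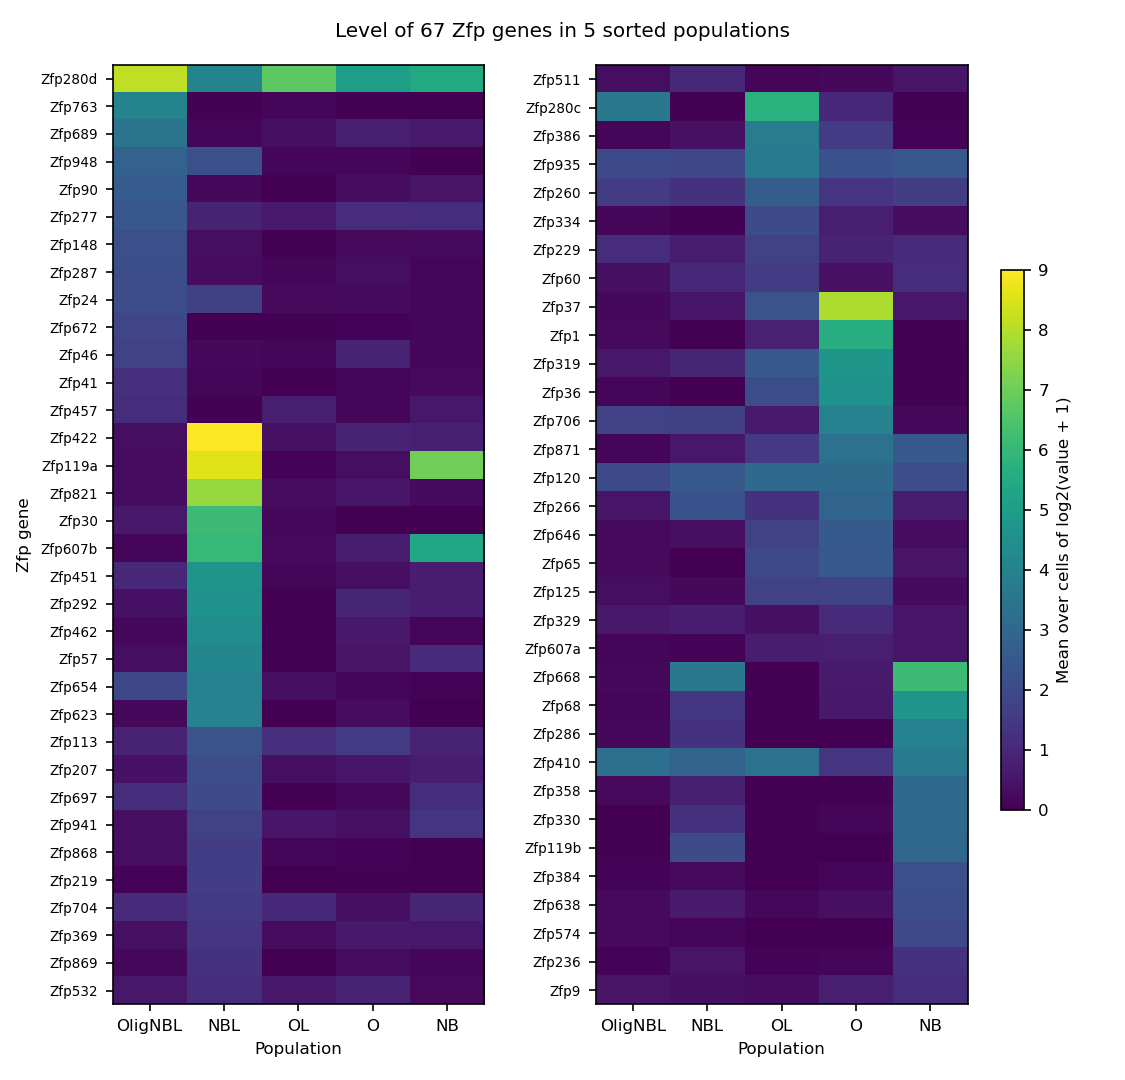
Level of each of the 67 Zfp genes (rows) in the 5 populations (columns); colour is the mean over cells of log2(value + 1). Genes are ordered by the population in which they were highest, and the brightest cells are Zfp422 in NBL (8.99), Zfp119a in NBL (8.58) and Zfp280d in OligNBL (8.13).

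The first comparison sets the double-reporter OligNBL cells against the lesion neuroblast-gated NBL cells. Among the 67 members 5 were higher in OligNBL by at least 2, a size taken as past the threshold throughout, where 12.2% of all genes were, and 13 were lower, where 10.3% of all genes were. As shares of the members these are 7.46% and 19.4%, and the median difference was -0.39 for members and 0.03 for all genes. Those higher were Zfp280d, Zfp763, Zfp280c, Zfp689 and Zfp90. Those lower were Zfp422, Zfp119a, Zfp821, Zfp607b, Zfp30, Zfp462, Zfp292, Zfp57, Zfp623, Zfp451, Zfp668, Zfp654 and Zfp119b. Both reporters' strains were crossed in OligNBL, so cell type and strain cannot be told apart here. OligNBL cells also had more genes detected, and in cells with at least 1000 genes the counts were 6 and 14. All genes were not counted in those cells.

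Zfp763 (chr17:33016863-33033402, minus strand), a KRAB member with 13 fingers, was found mostly in OligNBL cells. Its lowest, median and highest cell values on the log2 scale were 0, 4.32 and 16.06 in OligNBL and 0, 0 and 1.45 in NBL. It was detected in 28 of 40 OligNBL cells, against 1 of 27 NBL, 1 of 22 OL, 1 of 29 O and 0 of 37 NB cells. Thus OligNBL cells without the gene overlapped NBL, while every OligNBL cell at the median or above exceeded every NBL cell. Its level was 4.03 ± 4.06 in OligNBL and 0.05 ± 0.28 in NBL, a difference of 3.98. In 22 of 40 OligNBL cells it ranked within the top 500 genes (exact Clopper-Pearson 95% interval of the share 38.5 to 70.7%, counting error only), and in no NBL cell. Within OligNBL, 3 sets had means of 5.31 to 6.91, and the 2 sets with the lowest means were at 0.57 and 0.62.

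Zfp280c and Zfp280d encode homologues of the Drosophila insulator protein Su(Hw), and both were higher in OligNBL than in NBL. Zfp280c (chrX:48541625-48594504, minus strand) had cell values of 0, 2.86 and 15.86 in OligNBL and 0, 0 and 1.32 in NBL, for levels of 3.62 ± 3.99 and 0.05 ± 0.25. Its sets in OligNBL followed those of Zfp763: the same 3 sets were at 4.72 to 6.67 and the other 2 sets at 0 and 0.56. Zfp280d (chr9:72274860-72363777, plus strand) was detected widely, in 38 of 40 OligNBL and 21 of 27 NBL cells. Its values were 0, 9.13 and 18.14 in OligNBL and 0, 2.88 and 17.75 in NBL, so the cells overlapped over the whole range although the levels, 8.13 ± 5.21 and 4.05 ± 4.55, differed by 4.08. The order of its levels was OligNBL, OL (6.74), NB (5.48), O (5.05) and NBL, and each neighbouring pair differed by less than the SD between cells.

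Zfp689, a KRAB member, was at 3.46 ± 3.40 in OligNBL and 0.13 ± 0.52 in NBL, and it was detected in 31 of 40 against 2 of 27 cells. Zfp90 was at 2.63 ± 3.55 in OligNBL and 0.20 ± 0.70 in NBL. These 2 genes were high in different OligNBL cells: set 5 led for Zfp689 at 7.64, and sets 1 and 2 led for Zfp90 at 5.00 and 5.46. Without OligNBL set 2 the Zfp90 difference was 1.49, against 2.43 with all cells.

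Most of the members lower in OligNBL were high in particular sets of NBL cells. Zfp422 (chr6:116624016-116628999, minus strand), also called Krox-26, had values of 0, 0 and 3.24 in OligNBL cells and 0, 10.32 and 19.50 in NBL cells. The median NBL cell therefore stood above every OligNBL cell. Its level was 0.34 ± 0.81 in OligNBL and 8.99 ± 6.11 in NBL, a difference of -8.65, and it ranked within the top 500 genes in 0 of 40 OligNBL and 20 of 27 NBL cells. All 4 NBL sets, at 3.96 to 14.85, lay above all 5 OligNBL sets, at 0.03 to 0.65. Without NBL set 3, an 11-cell set, the difference was -4.63. The annotation holds a pseudogene copy, Zfp422-ps, which shares 8.42% of the 31-base words of Zfp422, so some reads could be split between them.

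Zfp821 and Zfp30 were highest in the same set of 11 NBL cells. Zfp821 was at 0.31 ± 1.00 in OligNBL and 7.58 ± 6.07 in NBL, with set 3 at 13.61 and NBL sets 1, 2 and 4 at 0, 3.82 and 4.82. Zfp30, known as a KRAB protein although the strict pattern found no match, was at 0.61 ± 2.53 in OligNBL and 6.18 ± 6.61 in NBL, with set 3 at 13.31 and the other NBL sets at 0 to 2.64. Zfp462, a gene with 33 fingers whose human counterpart is mutated in a neurodevelopmental disorder, was at 0.18 ± 0.57 in OligNBL and 4.41 ± 5.01 in NBL, with set 3 at 9.52. Leaving set 3 out turned their differences of -7.27, -5.58 and -4.23 into -3.12, -0.68 and -0.72, so Zfp30 and Zfp462 passed the threshold through 1 set.

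NBL set 4, which holds 7 cells, was high for another group of genes. Zfp292, whose human counterpart is linked to intellectual disability, was at 0.45 ± 1.25 in OligNBL and 4.62 ± 5.09 in NBL, with set 4 at 11.86. Zfp451, a SUMO ligase, was at 1.03 ± 1.62 in OligNBL and 4.65 ± 5.45 in NBL, with set 4 at 12.48. Zfp57, a KRAB protein that keeps DNA methylation at imprinting control regions, was at 0.33 ± 0.95 and 4.18 ± 5.33, with set 4 at 11.80. The same set led for Zfp623, at 11.88, and for Zfp654, at 11.43. Without these 7 cells the differences of Zfp292, Zfp451, Zfp57 and Zfp623 were -1.64, -0.87, -1.19 and -1.04, all inside the threshold, and that of Zfp654 changed sign, to 0.55 against -2.04.

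Zfp119a and Zfp607b were high across NBL rather than in 1 set. Zfp119a (chr17:55864892-55878930, minus strand) had values of 0, 0 and 3.91 in OligNBL cells and 0, 9.69 and 14.08 in NBL cells, for levels of 0.31 ± 0.82 and 8.58 ± 4.67. It ranked within the top 500 genes in 1 of 40 OligNBL and 22 of 27 NBL cells, or 81.5% of the NBL cells (exact 95% interval 61.9 to 93.7%). Zfp607b (chr7:27689340-27706484, plus strand) was at 0.14 ± 0.39 in OligNBL and 6.04 ± 3.92 in NBL. All NBL sets of both genes were above all OligNBL sets, as they were for Zfp119b and Zfp668. Past the threshold with set means apart were 7 of the 67 members (10.4%) and 6.55% of all genes. When any 1 set was left out, 4 of the 5 higher members stayed past the threshold (against 40.2% of all genes called higher), Zfp280c, Zfp280d, Zfp689 and Zfp763. Of the 13 lower members 5 did (38.5%, against 35.8% of all genes called lower), Zfp821, Zfp668, Zfp607b, Zfp119a and Zfp422.

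**Figure D3:**
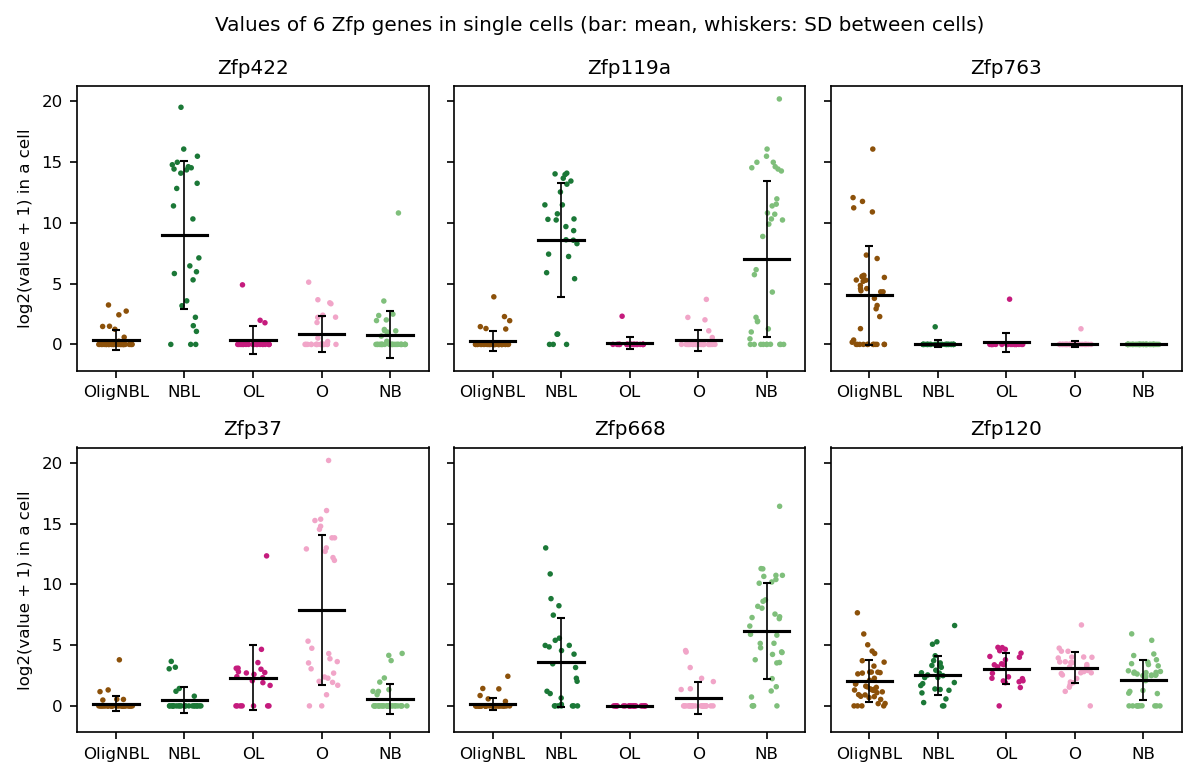
Value of 6 Zfp genes in every cell, as log2(value + 1), by population; the bar is the mean and the whiskers the SD between cells. Zfp422 and Zfp119a reach medians of 10.32 and 9.69 in NBL, Zfp763 is detected in 28 of 40 OligNBL cells, and Zfp120 lies at similar values in all populations.

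Against OL, the lesion Tomato-positive cells, OligNBL had 6 members higher by at least 2, where 13.2% of all genes were, and 4 lower, where 12.2% were. The shares of members, 8.96% and 5.97%, were both below those of all genes, and the median difference was 0.11 for members and 0.13 for all genes. Higher were Zfp763, Zfp689, Zfp948, Zfp90, Zfp148 and Zfp287; lower were Zfp386, Zfp280c, Zfp37 and Zfp36. This comparison and the one before share the OligNBL cells, so Zfp763, Zfp689 and Zfp90 appear in both through the same OligNBL values.

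Zfp763 was at 4.03 ± 4.06 in OligNBL and 0.17 ± 0.79 in OL, and Zfp90 was detected in 26 of 40 OligNBL and 0 of 22 OL cells. Zfp948, a KRAB member with 15 fingers, had values of 0, 0.47 and 19.50 in OligNBL and 0, 0 and 3.11 in OL, and its level of 2.84 ± 4.41 in OligNBL rested on set 2, at 8.73, with the other sets at 0 to 1.52. Zfp148, which binds GC-rich promoters, was at 2.20 ± 3.14 in OligNBL and was detected in no OL cell, with set 4 at 5.70. Left without those sets, the differences were 0.74 for Zfp948, against 2.70, and 0.87 for Zfp148, against 2.20. Zfp287 was at 2.16 ± 3.45 in OligNBL and 0.12 ± 0.40 in OL, and its difference of 2.03 was 0.92 without OligNBL set 5.

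The 4 members lower in OligNBL than in OL each depended on a set of OL cells. Zfp386, a KRAB member, was at 0.11 ± 0.50 in OligNBL and 3.76 ± 5.17 in OL, where set 3, of 8 cells, was at 9.75 and the others at 0 to 0.49. Without that set the difference of -3.65 was -0.24. Zfp280c, although higher in OligNBL than in NBL, was lower than in OL: 3.62 ± 3.99 against 5.74 ± 5.80, with 27 of 40 and 15 of 22 cells detecting it. OL set 1 was at 11.78, and without it the difference of -2.12 turned to 1.33. Zfp37 differed by -2.12 and Zfp36 by -2.05, and these were -1.09 without OL set 3 and -1.36 without OL set 4. Past the threshold with set means apart were 3 members, Zfp763, Zfp90 and Zfp36 (4.48%, against 9.12% of all genes). Whichever set was left out, 2 of the 6 higher members, Zfp689 and Zfp763, stayed past the threshold (33.3%, against 42.2% of all genes called higher), and 0 of the 4 lower ones (against 26.1%).

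Lesion and healthy GFP-positive cells, NBL and NB, share strain and gate, and this comparison sets injected against uninjected mice within neuroblasts. The injection and the lesion cannot be told apart in it. NBL and NB cells also have separate ranges of sample numbers, whose meaning is not stated. In NBL 10 members were higher by at least 2, where 9.76% of all genes were, and 4 were lower, where 8.39% were. The member shares were 14.9% and 5.97%, with a median difference of 0.05 for members and -0.004 for all genes. The 10 were Zfp422, Zfp821, Zfp30, Zfp462, Zfp623, Zfp451, Zfp292, Zfp654, Zfp57 and Zfp948, and the 4 were Zfp68, Zfp286, Zfp668 and Zfp358. The NBL cells are those of the first comparison, so these genes were high there in the same cells.

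Zfp422 had values of 0, 10.32 and 19.50 in NBL cells and 0, 0 and 10.81 in NB cells, where it was detected in 24 of 27 and 13 of 37. NB cells mostly lay near 0, with 1 cell reaching the NBL median. Its level was 8.99 ± 6.11 in NBL and 0.80 ± 1.92 in NB, a difference of 8.19, and 4.17 without NBL set 3. Zfp821 was at 7.58 ± 6.07 in NBL and 0.27 ± 0.83 in NB, a difference of 7.31, and 3.17 without that set. Zfp422 and Zfp821 were the members that stayed past the threshold under every set left out, 2 of the 10 higher ones, against 25.4% of all genes called higher. Past the threshold, Zfp422 alone had set means apart (1.49% of members, 2.07% of all genes).

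Zfp30 was detected in 18 of 27 NBL cells and 1 of 37 NB cells, at 6.18 ± 6.61 and 0.03 ± 0.17. Its difference of 6.16 and those of Zfp462 (4.29) and Zfp948 (2.15) became 1.25, 0.77 and 0.31 without set 3. Set 4 carried Zfp623, Zfp451, Zfp292, Zfp654 and Zfp57, whose differences of 3.10 to 3.98 all came inside the threshold without it, with Zfp57 at 0.43. NB cells held few of these transcripts: Zfp654 was detected in 1 of 37 NB cells and Zfp623 in 0, where a share as high as 8.11% is still possible.

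Zfp68, Zfp286, Zfp668 and Zfp358 were lower in NBL than in NB. Zfp668 (chr7:127863047-127876828, minus strand), a gene whose human counterpart acts in the response to DNA damage, had values of 0, 3.16 and 12.99 in NBL cells and 0, 5.89 and 16.42 in NB cells. The populations overlapped widely, at 3.59 ± 3.65 in NBL and 6.16 ± 3.98 in NB, a difference of -2.57. Zfp286 was at 1.30 ± 2.59 in NBL and 4.00 ± 4.72 in NB, with NB set 3, of 3 cells, at 13.09. Zfp68, a KRAB member, averaged 1.46 ± 1.79 in NBL against 4.70 ± 5.54 in NB. Its difference of -3.24 was -0.40 without NB set 5, whose mean was 11.41. Zfp358 averaged 0.79 ± 2.55 in NBL against 3.09 ± 3.67 in NB, and its difference of -2.29 was -0.94 without NB set 2. Of the 4, 0 stayed past the threshold under every set left out, against 20.6% of all genes called lower. At least 1000 genes were detected in 22 of 27 NBL and 21 of 37 NB cells. Over these cells 13 members were higher and 11 lower, the 4 among them, and all genes were not counted there.

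**Figure D4:**
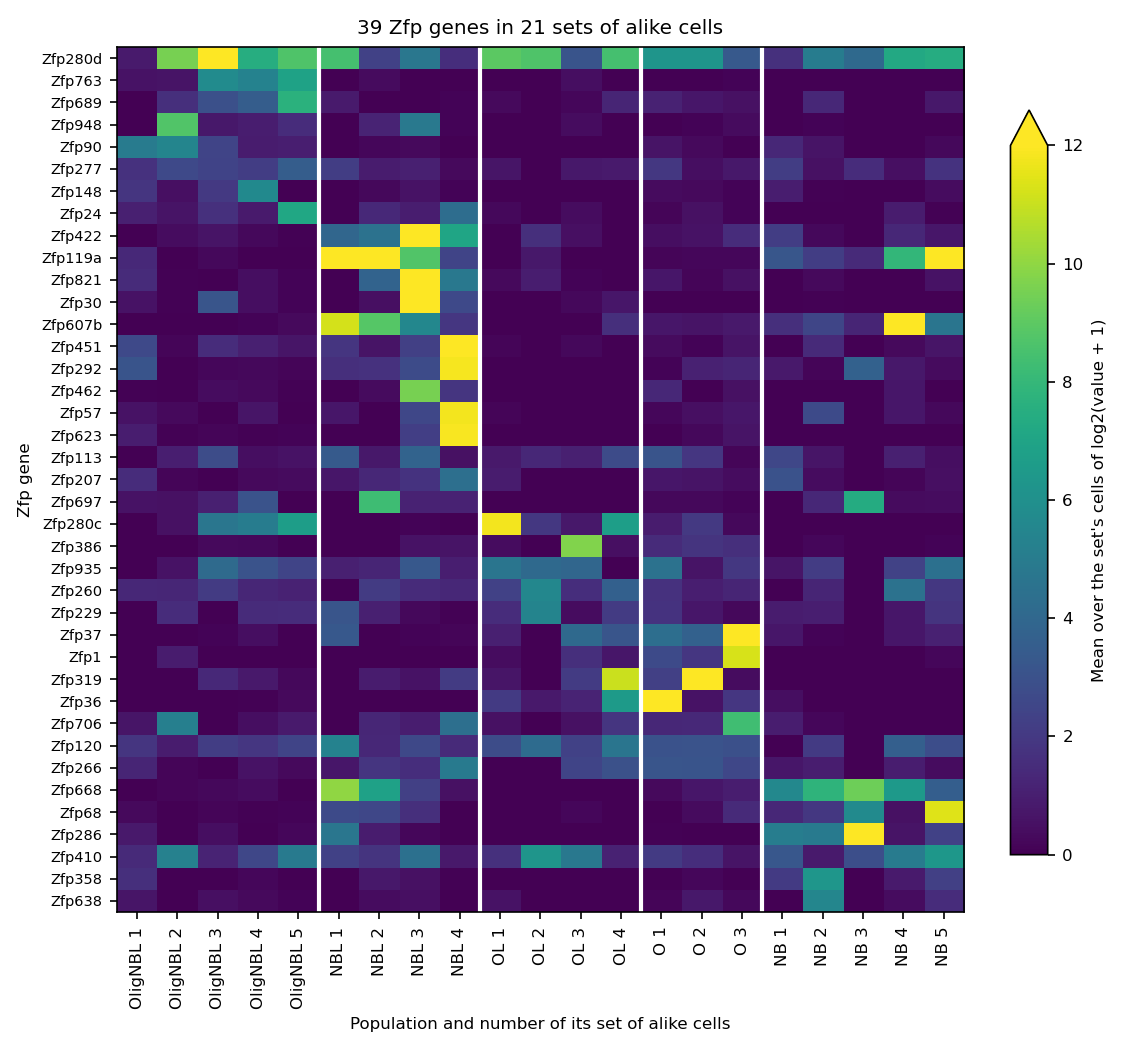
Mean of log2(value + 1) in each of 21 sets of alike cells (columns, by population) for 39 Zfp genes (rows); values above 12 take the top colour. Several genes are far higher in 1 set of a population than in its others, such as Zfp451 in NBL set 4 (12.48), Zfp386 in OL set 3 (9.75) and Zfp36 in O set 1 (12.12).

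Lesion and healthy Tomato-positive cells, OL and O, share strain and gate, and this comparison sets injected against uninjected mice within oligodendroglia. Here too the injection and the lesion cannot be told apart. No O cell has a sample number within the range of the OL cells, and the meaning of these numbers is not stated. In OL 3 members were higher by at least 2, where 8.36% of all genes were, and 5 were lower, where 7.92% were. These are 4.48% and 7.46% of the members, with median differences of -0.19 for members and -0.10 for all genes. Zfp280c, Zfp386 and Zfp410 were higher, and Zfp37, Zfp1, Zfp706, Zfp36 and Zfp319 lower. The OL cells are also those of the second comparison.

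Zfp280c was at 5.74 ± 5.80 in OL and 0.99 ± 1.21 in O, and 10 of 22 OL cells but 0 of 29 O cells had it among their 500 highest genes. Its values were 0, 3.26 and 18.99 in OL and 0, 0 and 3.30 in O, so OL cells spread from nothing to far above the O range. Its difference of 4.76 was 1.30 without OL set 1. Zfp386 was at 3.76 ± 5.17 in OL and 1.58 ± 2.78 in O, and without OL set 3 its difference of 2.18 turned to -1.24. Zfp410, an activator of the chromatin remodeller gene Chd4, was at 3.36 ± 4.00 in OL and 1.35 ± 1.61 in O. Its difference of 2.01 was the closest of all to the threshold from within, and 1.98 was the closest from outside.

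Zfp37 (chr4:62189540-62231047, minus strand) was lower in OL than in O, with lowest, median and highest values of 0, 2.36 and 12.34 in OL cells and 0, 4.74 and 20.19 in O cells. The populations overlapped, with the highest O cells above all OL cells. It was at 2.32 ± 2.65 in OL and 7.90 ± 6.20 in O, a difference of -5.58, and -2.18 without O set 3, a 10-cell set at 14.34. Zfp1, a KRAB member, was at 0.84 ± 1.80 in OL and 5.61 ± 5.38 in O, with O set 3 at 11.27. Zfp706, a small protein with 1 finger that represses Klf4 in mouse embryonic stem cells, was at 0.64 ± 1.55 in OL and 3.98 ± 4.34 in O, with O set 3 at 8.31. Without that set the differences of Zfp1 (-4.77) and Zfp706 (-3.34) were -1.79 and -1.06.

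Zfp36 (chr7:28376784-28380253, minus strand) encodes tristetraprolin, which binds AU-rich elements and promotes mRNA decay and which is quickly induced by many stimuli. Its values were 0, 1.42 and 14.02 in OL and 0, 1.28 and 19.50 in O, and it was detected in 13 of 22 OL and 17 of 29 O cells. The median cells were thus close while the level was 2.17 ± 3.47 in OL and 4.59 ± 5.94 in O. O set 1, of 9 cells, was at 12.12 and the other O sets at 0.59 and 1.88, and without set 1 the difference of -2.42 turned to 0.97. Zfp319 was at 2.51 ± 4.45 in OL and 4.78 ± 6.08 in O, with O set 2 at 12.64 and OL set 4 at 11.04, and without O set 2 the difference of -2.26 turned to 1.28. Zfp37 was the 1 of 5 lower members (against 10.3% of all genes called lower) that stayed past the threshold under every set left out, and 0 of the 3 higher ones did (against 16.8%). Past the threshold, Zfp1 alone had set means apart (1.49% of members, against 2.75% of all genes).

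Healthy Tomato-positive O cells against healthy GFP-positive NB cells compare oligodendroglia with neuroblasts, and here strain and gate differ together. Members higher in O by at least 2 numbered 8, where 12.3% of all genes were, and members lower numbered 10, where 13.5% were. The member shares were 11.9% and 14.9%, and the median difference was 0.02 for members and 0.09 for all genes. Higher in O were Zfp37, Zfp1, Zfp319, Zfp36, Zfp706, Zfp646, Zfp266 and Zfp65. Lower in O were Zfp119a, Zfp668, Zfp607b, Zfp68, Zfp286, Zfp119b, Zfp358, Zfp330, Zfp410 and Zfp384. The O cells are those of the comparison with OL, and the NB cells those of the comparison with NBL.

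Zfp37 was at 7.90 ± 6.20 in O and 0.57 ± 1.21 in NB, with values of 0, 4.74 and 20.19 in O cells and 0, 0 and 4.32 in NB cells. The median O cell stood above every NB cell, and the gene was detected in 27 of 29 O and 9 of 37 NB cells. Zfp1 was detected in 22 of 29 O and 1 of 37 NB cells, at 5.61 ± 5.38 and 0.06 ± 0.38. Zfp319 was detected in 18 of 29 O and 0 of 37 NB cells, and Zfp36 in 17 and 1. Zfp266, a KRAB member, was even across O, where 28 of 29 cells detected it and the 3 sets were at 2.56 to 3.16; its level was 2.91 ± 1.18 in O and 0.69 ± 1.21 in NB. Its difference, 2.21, was small beside that of Zfp37, 7.32, but larger than the SD between cells of either population.

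Left without 1 set, the differences of Zfp36 (4.53), Zfp319 (4.78), Zfp706 (3.78), Zfp646 (2.25) and Zfp65 (2.04) were 1.14, 1.23, 1.51, 0.60 and 0.35. Zfp37, Zfp1 and Zfp266 were the members higher in O that stayed past the threshold under every set left out (37.5%, against 33.2% of all genes called higher), although without O set 3 the differences of Zfp37 and Zfp1 (7.32 and 5.55) were 3.93 and 2.57.

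Zfp119a had a median of 0 in O cells and 6.15 in NB cells, where the highest cell was at 20.19, for levels of 0.33 ± 0.87 and 7.03 ± 6.43. Zfp668 was at 0.66 ± 1.34 in O and 6.16 ± 3.98 in NB, detected in 7 of 29 and 33 of 37 cells. The median NB cell of both genes stood above every O cell. Zfp607b was at 0.70 ± 1.17 in O and 5.36 ± 6.01 in NB, with NB set 4 at 15.63. Zfp286 was detected in 1 of 29 O and 24 of 37 NB cells, at 0.02 ± 0.10 and 4.00 ± 4.72. These 4 genes were the ones lower in O that stayed past the threshold under every set left out, 4 of 10, against 41.1% of all genes called lower. The difference of Zfp119a was -6.70, and -3.74 without NB set 5, and that of Zfp607b was -4.66, and -2.67 without NB set 4. Past the threshold with set means apart were 12 members (17.9%, against 14.0% of all genes).

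Zfp330 was at 0.12 ± 0.45 in O and 3.08 ± 3.97 in NB, and Zfp384, which binds nuclear matrix and collagen gene promoters, at 0.16 ± 0.78 and 2.21 ± 2.84. Without NB set 2 the Zfp330 difference of -2.96 was -1.17, and without NB set 5 the Zfp384 difference of -2.06 was -0.72. Zfp68, Zfp119b and Zfp410 also depended on NB set 5, with differences of -4.10, -3.05 and -2.32 that were -1.26, -1.49 and -1.19 without it. Zfp358 differed by -3.02, and by -1.66 without NB set 2.

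**Figure D5:**
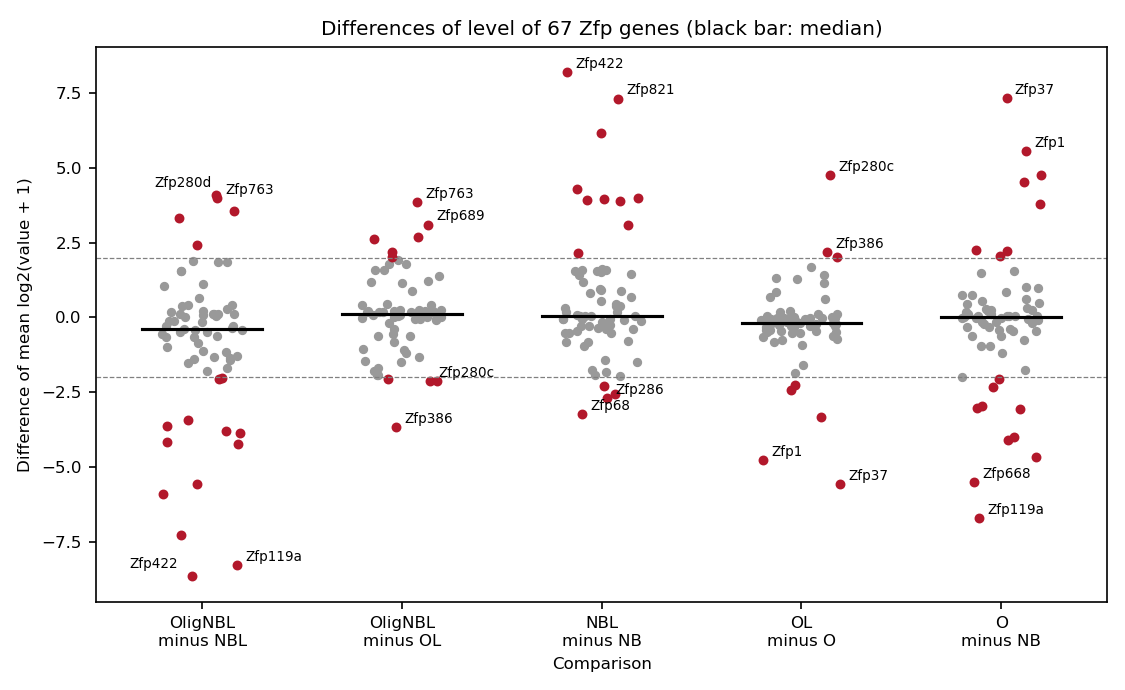
Difference of level for each of 67 Zfp genes in the 5 comparisons, first population minus second, with points at or beyond the dashed lines at 2 and -2 in red and the median as a black bar; the 2 lowest and 2 highest members are named. The median is -0.39 for OligNBL minus NBL and between -0.19 and 0.11 in the others.

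Read across the populations, Zfp119a, Zfp607b and Zfp668 were high in NBL and NB and low in the other 3 populations. Zfp119a was at 0.31 in OligNBL, 8.58 in NBL, 0.11 in OL, 0.33 in O and 7.03 in NB, and the NBL and NB levels differed by less than the SD between cells. Zfp668 followed the same division, at 0.18 in OligNBL, 3.59 in NBL, 0 in OL, 0.66 in O and 6.16 in NB. The levels were uneven between sets. In NB 2 of 5 sets had a mean of 4 or more for Zfp119a (range 1.43 to 14.02) and for Zfp607b (1.23 to 15.63). In NBL 2 of 4 sets did for Zfp668 (0.55 to 10.02). OligNBL cells are also GFP-positive and their neuroblast marker sums overlapped those of NBL and NB. Few of them held the 3 genes: Zfp119a was detected in 7 of 40 OligNBL cells, Zfp607b in 7 and Zfp668 in 6. The same division separates the GFP strain of NBL and NB from the cross and the Tomato strain. Strain and cell type therefore cannot be told apart in it. The 3 genes were also named for their differences between these populations.

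Copies with like names behaved differently from pair to pair, and by shared words they were not always the nearest copies. Zfp119a and Zfp119b, 59450 bp apart on chromosome 17, moved together with a Pearson correlation of 0.80 across 155 cells, and Zfp119b was at 0.06 in OligNBL, 2.09 in NBL, 0 in OL, 0 in O and 3.05 in NB. Of the 31-base words of Zfp119a, 19.4% also occur in Zfp119b, and of those of Zfp119b 29.3% occur in Zfp959. Reads may have been split between these genes, so their values are uncertain as separate genes. Zfp607a and Zfp607b, at a correlation of 0.11, did not move together: Zfp607a was at 0.11, 0.10, 0.68, 0.75 and 0.50 in OligNBL, NBL, OL, O and NB, against 0.14, 6.04, 0.22, 0.70 and 5.36 for Zfp607b. Zfp607a and Zfp607b each shared the most words with Zfp780b, at 7.0% and 8.93%. The pair Zfp280c and Zfp280d, on different chromosomes, were at a correlation of 0.19. The correlations are over cells that share sets and normalization, and no test was made of them.

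Other neighbours also differed from pair to pair. Zfp286 and Zfp287 lie 20671 bp apart on chromosome 11 and had a correlation of -0.09 over the 155 cells: Zfp287 was highest in OligNBL and Zfp286 in NB. Zfp668 and Zfp646 overlap by their ends on opposite strands of chromosome 7 and were at -0.16, with Zfp668 highest in NB and Zfp646 in O, at 2.53 ± 3.28. Counting is not stated to use strand, so reads in that overlap cannot be assigned to either gene. Zfp868 and Zfp869, which share words, were at 0.43, and both were highest in NBL, at 1.63 and 1.34. In 13 of 67 members more than 10% of the words recur in other genes, up to 100% in Zfp935, whose value cannot be separated from that of the overlapping annotation Gm49359.

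The members were split by a match to the strict KRAB pattern. The 44 with no match include Zfp30, a known KRAB protein, so they are not a group without the box. Of 22 with a match, 2 were higher and 3 lower by at least 2 in OligNBL against NBL. Of the 44 with no match these were 3 and 10, and the medians were -0.35 and -0.41. Among all genes 12.2% were higher and 10.3% lower. In NBL against NB the matched members had 2 higher and 1 lower and the others 8 and 3, where 9.76% and 8.39% of all genes were. In OligNBL against OL these were 3 and 1, and 3 and 3, where 13.2% and 12.2% of all genes were. In OL against O they were 1 and 1, and 2 and 4, where 8.36% and 7.92% of all genes were. In O against NB they were 3 and 3, and 5 and 7, where 12.3% and 13.5% of all genes were. The counts were not tested.

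The partners of KRAB proteins in heterochromatin were looked at as the wider pathway, from a list of which 14 genes were measured. The corepressor gene Trim28 was on the list but not among those measured. In OligNBL against NBL 0 of 14 were higher and 2 lower by at least 2: Cbx5, which encodes heterochromatin protein HP1 alpha, by -6.42 and the histone deacetylase gene Hdac2 by -5.96. In NBL against NB 2 were higher, Hdac2 by 4.49 and Cbx5 by 2.05, and 1 lower, the chromatin remodeller gene Atrx by -2.80. In OligNBL against OL 3 were higher and 1 lower, in OL against O 1 and 2, and in O against NB 2 and 3. Of all genes 12.2% were higher and 10.3% lower in OligNBL against NBL, and 9.76% and 8.39% in NBL against NB. In the remaining comparisons, in the order given, these shares were 13.2% and 12.2%, 8.36% and 7.92%, and 12.3% and 13.5%. Setdb1, the methyltransferase that KRAB proteins recruit, was at 2.10 ± 2.64 in OligNBL, 0.43 ± 1.09 in NBL, 0.57 ± 1.00 in OL, 0.52 ± 1.33 in O and 0.46 ± 1.91 in NB, below the threshold in every comparison.

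Another 50 genes were picked by symbols used for zinc finger genes, such as Zbtb, Zscan and Zc3h. They were not checked for a finger, so some, such as Zbtb8os, may encode none. In OligNBL against NBL 6 were higher and 4 lower by at least 2, with a median of 0.03, where 12.2% and 10.3% of all genes were. In NBL against NB 6 were higher and 5 lower, with a median of -0.03, where 9.76% and 8.39% of all genes were. Neither count was tested against that of the Zfp genes. In OligNBL against OL 7 were higher and 2 lower, in OL against O 2 and 4, and in O against NB 3 and 6. The shares of all genes there were 13.2% and 12.2%, 8.36% and 7.92%, and 12.3% and 13.5%.

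The roles known for single members divided as follows. Zfp24 was at 2.14 ± 3.34 in OligNBL, 1.72 ± 2.27 in NBL, 0.22 ± 0.74 in OL, 0.26 ± 0.73 in O and 0.17 ± 0.90 in NB. This gene, needed for myelination in mouse, was detected in 30 of 40 OligNBL and 11 of 27 NBL cells, but in 2 of 22 OL, 4 of 29 O and 2 of 37 NB cells. Its largest difference, 1.92 in OligNBL against OL, was inside the threshold, and OligNBL set 5, at 7.15, led. It passed the threshold there without the 12 cells numbered up to 21 and with sets weighted equally, and in NBL against NB in cells with at least 1000 genes. Zfp207, a kinetochore and spindle protein, was highest in NBL at 2.13 ± 2.11, against 0.45 ± 0.75 in OligNBL, and at 0.71 or below in the other 3. Zfp638, a nuclear RNA- and DNA-binding protein, was highest in NB at 2.15 ± 2.86, and NB set 2 was at 5.49. Zfp277, which works with Polycomb proteins in mouse cells, was highest in OligNBL at 2.45 ± 2.79, against 0.88 ± 1.31 in NBL and 0.66 ± 1.12 in OL, and its 5 OligNBL sets ran from 1.71 to 3.56. Zfp697 was high in NBL set 2, at 8.26, and NB set 3, at 7.40.

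Of the members found in the most cells, several differed little between populations. Zfp120, a KRAB member, was detected in 36 of 40 OligNBL, 25 of 27 NBL, 21 of 22 OL, 28 of 29 O and 27 of 37 NB cells. Its levels ran from 2.03 ± 1.71 in OligNBL and 2.11 ± 1.64 in NB to 2.50 ± 1.61 in NBL, 3.07 ± 1.26 in OL and 3.12 ± 1.27 in O, and no neighbouring pair in that order differed by as much as its SD between cells. Zfp260 was between 1.32 and 2.67 in the 5 populations. Zfp113 ranged over 1.44 on the log2 scale, with its highest level in NBL at 2.29 ± 2.95. Zfp935 was highest in OL at 3.70 ± 3.39, with the doubt about its annotation given above. Among members detected in at least 20% of the cells of every population, Zfp229 had the smallest range, with levels of 0.73 to 1.73.

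In all, 36 members passed the threshold in at least 1 of the 5 comparisons and 31 in none, and 45 were detected in every population. All 36 had at least 1 set with a mean of 4 or more, and so did 18 of the 31. All genes were not counted in these ways, so whether members differ from them here was not tested. The 31 had a range of levels from 0.65 to 3.18, with a median of 1.38, and 11 of them were highest in NBL. Zfp871, at 3.35 in O and 2.51 in NB, and Zfp334, Zfp574 and Zfp672 were among them and had 1 to 3 such sets each. Zfp41, Zfp46, Zfp219, Zfp236, Zfp329, Zfp532, Zfp60, Zfp868, Zfp869 and Zfp9 had none and stayed at 1.76 or below in every population. The rest of the 31 not named so far, Zfp125, Zfp369, Zfp457, Zfp511, Zfp704 and Zfp941, had 1 or 2 such sets.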

How the data were processed

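The members and gene lists were chosen with earlier results of these data known. The notes on processing by the submitters name kallisto, limma and the build GRCm38, with no versions, and do not say how the 3422 genes were selected. RNA of single cells was amplified by SMART-Seq2, per the labels. The deposited table is named estimated counts, but per its values it is a normalized signal, as after quantile normalization by the authors, so no count test was used. Depth is unknown, and no column belonged to another sample (0 such columns).

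Levels are means of log2(value + 1) over a population's cells. Detection was planned as a value above 0; as 1 NB cell had a lowest value of 0.0058, a value above the cell's lowest was used. Presence means being among a cell's 500 highest genes, which left out 2 NB cells. Each population was 1 sample, so no p-value was computed, and members count as called at a difference of 2. Sets of alike cells came from average linkage on the correlation of genes outside the family, with 0.4 as the joining value. The genes described in detail were up to 5 each way per comparison with a difference of at least 2 and a difference of at least 20 percentage points in presence, the 10 detected in the most cells, up to 4 per role group, and the member with the smallest range among those detected in at least 20% of the cells of every population; further members past 2 were named after their values were seen. The sets, their counts and the leaving out of each were added after seeing the data. Intervals are exact Clopper-Pearson at 95%, and a count of 0 is bounded by 3 cells of the total.

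Positions, fingers and KRAB boxes come from GENCODE vM21 transcripts, translated from the longest coding transcript in place of the planned RefSeq proteins, which were not used here. The finger pattern was C, 2 to 4 residues, C, 12 residues, H, 3 to 6 residues and H. One listed oligodendrocyte marker is not reported here and was left out of the marker sums. No cell was removed from levels and doublets were not called. Tables were computed in Python 3.11.15 with pandas 2.3.3, scipy 1.17.1 and numpy 2.4.6 and drawn with matplotlib 3.10.9. The level step was run on simulated data with added shifts. It returns such shifts by construction, so that run says nothing of the results. Alternatives covered the pseudocount, threshold, early-numbered cells, genes detected, the highest cell, equal weighting of sets, filters on low values and the joining value.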

Additional observations from a re-analysis of the deposited data

Results flagged for a closer look

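In 3 members lesion and healthy cells differed by at least 1 on the log2 scale in both the GFP-gated and the Tomato-gated cells. These differences ran opposite ways. Further members had opposite signs with a smaller difference on one side. All genes were not counted in this way. Zfp706 was higher by 1.52 in NBL than in NB, whereas in OL it was lower than in O, at -3.34. Without O set 3, which led at 8.31, the OL against O difference came inside the threshold. Zfp266 was at 1.58 for NBL minus NB and -1.6 for OL minus O. Zfp280d was at -1.43 for NBL minus NB and 1.7 for OL minus O. The difference between the paired effects was not tested, as each population is 1 sample, and cells of all populations overlapped for these genes. Each population enters a single one of these differences.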

How the results depend on the processing

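No member difference past 2 changed direction under the pseudocount, the cells used, equal weighting of sets or the filters (59 differences of the named members, 412 alternatives). With a pseudocount of 10, 22 of the 59 came below 2, and Zfp266 in O against NB was at 0.66. Leaving out 1 set of alike cells was harsher: 38 of the 59 came below 2 at least once and 4 changed sign. Those 4 ran from -4.97 to 1.33 for Zfp280c in OligNBL against OL, and in OL against O from -4.56 to 1.28 for Zfp319, -4.22 to 0.97 for Zfp36 and -1.24 to 4.09 for Zfp386. Zfp654, named beyond these, also changed sign in OligNBL against NBL, to 0.55 without NBL set 4. By construction, a set left out removes the cells that carried the value.

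Counts of members moved as follows. The share of all genes was not computed under these settings, so whether members moved unlike other genes was not tested. With a pseudocount of 10, OligNBL against NBL had 2 higher, OligNBL against OL 1 higher and 1 lower, NBL against NB 1 lower, OL against O 1 higher and 3 lower, and O against NB 5 higher and 5 lower. At a threshold of 1, OligNBL against NBL had 12 higher and 23 lower, OligNBL against OL 15 and 14, NBL against NB 19 and 10, and OL against O 8 higher. Without each member's highest cell, OligNBL against OL had 1 lower and OL against O 1 higher. The members lower in NBL than in NB numbered 9 without the cells numbered up to 21, 11 in cells with at least 1000 genes and 2 with sets weighted equally; the cause was not tested. With a set left out, counts ran from 3 to 9 lower in OligNBL against OL (9 without OL set 1), from 3 to 9 lower in NBL against NB (9 without NB set 1 and 8 without NB set 4), and from 2 to 5 higher in OL against O (5 without O set 1). Members of NBL against NB with set means apart were 3 at a joining correlation of 0.5 and 2 at 0.35.

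The percentage of detected genes that were members was 1.29 in OligNBL and 1.35 in O among the 500 highest genes. With a scaled signal of at least 5 as detection it was 1.35 in OligNBL, 2.57 in NBL, 0.984 in OL and 1.37 in O; NBL stayed highest. No paired analysis was possible because cell numbers only name cells and no result comes from a test. Depth is unknown, and low members cannot be told from members lost in capture. The 9 OL cells with at least 1000 genes limit that alternative for OL.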

Other observations

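The pairs of members most alike across the 155 cells by Pearson correlation were Zfp125 and Zfp65 (0.87), Zfp821 and Zfp422 (0.86), Zfp334 and Zfp386 (0.86), Zfp384 and Zfp68 (0.85), and Zfp41 and Zfp672 (0.81), ahead of the neighbours Zfp119a and Zfp119b (0.80). Of the 31-base words of Zfp125, annotated as a pseudogene, 49.1% recur in other genes, and of those of Zfp65 20.2%. These pairs were picked for their correlation, the cells share sets and normalization, and no test was made.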
